A study of Mus musculus with 8 samples.

Results

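The genes described here are 6 dual-specificity phosphatases, Dusp1, Dusp3, Dusp4, Dusp6, Dusp9 and Dusp10, of 31053 genes counted in brown adipose tissue (BAT). They were chosen by their db/db against wild-type (WT) values in these same libraries, with Dusp9 set against its relatives, so those values are given as a description with no test. Bulk RNA-seq was run on 4 libraries from WT mice of strain C57BL6/J and 4 from db/db mice (genotype DB_DB in the labels, strain also given as C57BL6/J, bought as B6.BKS(D)-Leprdb/J), all 8 weeks old. Per the methods the mice were males on normal diet, and tissue was taken after a fast. db/db mice lack the signalling form of the leptin receptor in every tissue, overeat and become obese and diabetic, so a direct effect of the receptor in BAT and an effect of the obesity cannot be told apart. The methods text gives different suppliers for WT and db/db mice, while the study's list of resources also gives a C57BL/6J strain from the db/db supplier. If the WT mice came from the other supplier, supplier and genotype cannot be told apart.

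Dual-specificity phosphatases remove phosphate from both the tyrosine and the threonine of the activation loop that switches a MAP kinase on. Within the MAP kinase phosphatases (MKPs), DUSP6 and DUSP9 (MKP-4) are cytoplasmic and prefer ERK, DUSP1 and DUSP4 are nuclear and are themselves induced by MAP kinase signalling, and DUSP10 prefers JNK and p38. DUSP3 (VHR) is a small atypical member without the kinase-docking domain of the MKPs. In brown adipocytes, p38 acts below the β-adrenergic receptor towards Ucp1 and Ppargc1a, while DUSP9 is best known from the placenta and from insulin-responsive tissues.

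Total counts ran from 2374079 to 3240074 per library, and 9264 genes passed the count filter, the 6 phosphatases among them. Values are counts per 1000000 counts (CPM), scaled by the total over the filtered genes and its TMM factor. Lepr had 0 counts in all 8 libraries, and its level therefore checks no label. The labels give stromal vascular fraction as the cell type, but adipocyte genes were abundant, with Cidea at 3975 to 4787 CPM in WT and 1254 to 2380 CPM in db/db and Adipoq at 1245 CPM or more in every library. The summed level of 12 macrophage markers was 162 to 221 CPM in WT and 801 to 1392 CPM in db/db, with 10 of the 11 tested higher, and that of 6 white adipocyte markers was 114 to 345 CPM and 1893 to 2918 CPM, with 4 of 6 higher. All 12 skeletal muscle markers were higher in db/db, where their sum was 2290 to 11543 CPM (highest in db/db 1), against 412 to 1511 CPM in WT, and all 8 fibroblast and progenitor markers were higher, at 938 to 1970 CPM against 482 to 602 CPM. None of these lists had a marker at 0 in all libraries. Their part in the results below was not tested, and in bulk tissue a change in the number of cells of a type cannot be told apart from a change in RNA per cell.

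Dusp9, the ERK-preferring phosphatase encoded on the X chromosome (mm10, X, 73639419 to 73643514, plus strand), was detected in every db/db library and in no WT library. It had 0 counts in each WT library and 62, 49, 26 and 42 counts in db/db 1 to 4. In db/db this was 18.7, 15.6, 11.5 and 15.6 CPM, a mean of 15.3 ± 2.92 CPM (SD, n = 4). Taken over the library totals without TMM scaling, the db/db libraries held 20.05 CPM (95% Wilson interval 15.6 to 25.7), 15.1 (11.4 to 19.99), 10.9 (7.45 to 15.99) and 14.7 (10.9 to 19.9), and the intervals cover counting error only. A WT count of 0 allows up to 3 counts per library, on average 1.22 CPM, and against this floor Dusp9 was at least 12.6-fold higher in db/db. No exon of another annotated gene overlapped those of Dusp9.

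Dusp9 was one of 6 tested genes with 0 counts in all WT libraries. The others, named after their values were seen, were Ccn5, Cilp, Mettl21c, Gm34302 and Prr32. Db/db 3 had the lowest Dusp9 level and db/db 1 the highest, and the highest was 1.62 times the lowest. The summed macrophage markers stood at 1392, 802, 801 and 1186 CPM in db/db 1 to 4, nearly equal in db/db 2 and db/db 3. That is the order of the libraries for TMM-scaled Dusp9, which was nearly equal in db/db 2 and db/db 4. Without TMM scaling, Dusp9 was higher in db/db 2 than in db/db 4, and the orders were not the same. The summed muscle markers stood at 11543, 3142, 5136 and 2290 CPM, highest in db/db 1 as Dusp9 was, with the other 3 libraries in another order. The summed fibroblast and progenitor markers stood at 1970, 1354, 938 and 1063 CPM and the white adipocyte markers at 2553, 1897, 2918 and 1893 CPM. The part of these cells in the Dusp9 level was not tested.

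Tested genes close to Dusp9 on the X chromosome were set beside it. Slc6a8 (the creatine transporter, 29.6 kb away) stood at 30.8 ± 6.86 CPM in WT and 26.4 ± 8.04 CPM in db/db (edgeR adjusted p = 0.487, with a log2 fold change of -0.24 and an SE of 0.23). Bcap31, an endoplasmic reticulum membrane protein, had a log2 fold change of 0.32 (SE 0.13, edgeR adjusted p = 0.0672). On the other side Bgn, the matrix proteoglycan biglycan 143 kb away, was higher (edgeR adjusted p = 4.26e-05, log2 fold change 1.80 with SE 0.25), and F8a and Zfp275 did not pass the threshold (edgeR adjusted p = 0.985 and 0.432).

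Among the 5 genes whose profile over the 8 libraries was most like that of Dusp9 were S100a6, Atp6v0d2, Prr32 and Synpo2, by the smallest root mean square difference of centred log2 CPM among 9263 genes. That difference was 0.19 for S100a6, a calcium-binding protein, at 31.1 ± 3.63 CPM in WT and 584 ± 119 CPM in db/db. It was 0.24 for Atp6v0d2, a proton pump subunit known from osteoclasts and macrophages, with 0 to 1 counts in WT libraries and 14.5 ± 1.39 CPM in db/db. Prr32, also X-linked, differed by 0.26 and stood at 15.3 ± 3.44 CPM in db/db. Synpo2, an actin-bundling protein of muscle, differed by 0.36 and stood at 2.95 ± 0.951 CPM in WT and 82.6 ± 26.8 CPM in db/db. Because log2 values add a prior count of 2 and Dusp9 itself is at 0 in WT, all of these distances depend on that prior. This includes those to S100a6 and Synpo2, which had counts in WT.

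Dusp6, the other ERK-preferring phosphatase and a classical ERK feedback gene (10, 99263231 to 99267489, plus strand), averaged lower in db/db but with overlapping groups. It stood at 17.8, 34.2, 60.1 and 49.2 CPM in WT 1 to 4 and at 23.5, 29.0, 16.0 and 17.5 CPM in db/db 1 to 4. WT 1 lay inside the db/db range, and the other WT libraries lay above all db/db libraries. The mean was 40.3 ± 18.4 CPM in WT and 21.5 ± 5.95 CPM in db/db (log2 fold change -0.90, SE 0.29).

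Dusp4, a nuclear phosphatase induced through ERK (8, 34807297 to 34819894, plus strand), was the only one of the 6 with all db/db libraries below all WT libraries. It stood at 23.5, 31.2, 20.3 and 17.8 CPM in WT 1 to 4 and at 4.81, 3.82, 4.43 and 5.21 CPM in db/db 1 to 4. The db/db values rested on 10 to 16 counts per library. The mean was 23.2 ± 5.83 CPM against 4.57 ± 0.592 CPM, a fold of 0.198 (log2 fold change -2.33, SE 0.27), which was the 19th lowest log2 fold change among the 9264 genes.

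Dusp3 (11, 101971143 to 101987013, minus strand), which acts on ERK and JNK and on other tyrosine-phosphorylated proteins, had the highest CPM of the 6 in both genotypes. It stood at 63.5, 51.1, 81.2 and 55.6 CPM in WT 1 to 4 and at 139, 130, 136 and 144 CPM in db/db 1 to 4, with no overlap. The mean was 62.8 ± 13.3 CPM in WT and 137 ± 6.06 CPM in db/db, a fold of 2.18 (log2 fold change 1.12, SE 0.15). Its db/db libraries were also the most alike of any of the 6 genes, with a coefficient of variation of 4.42%. An exon of Gm20659 overlaps it on the other strand, and no source used here gives the strand setting of the counting, so its counts are uncertain to that extent.

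Dusp10, which prefers p38 and JNK (1, 184013302 to 184075636, plus strand), had overlapping groups. It stood at 4.45, 8.86, 5.26 and 15.3 CPM in WT 1 to 4 and at 9.02, 6.68, 11.97 and 16.0 CPM in db/db 1 to 4. The log2 fold change of 0.36 was no larger than its SE of 0.38, and it was 0.80 without WT 4, 0.13 without WT 1, 0.17 without WT 3 and 0.11 without db/db 4. Of the 6 genes, 3 (Dusp3, Dusp4 and Dusp9) had groups that did not overlap, against 28.1% of all genes tested. Since the 6 were chosen on this contrast, nothing is read from that count.

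**Figure D1:**
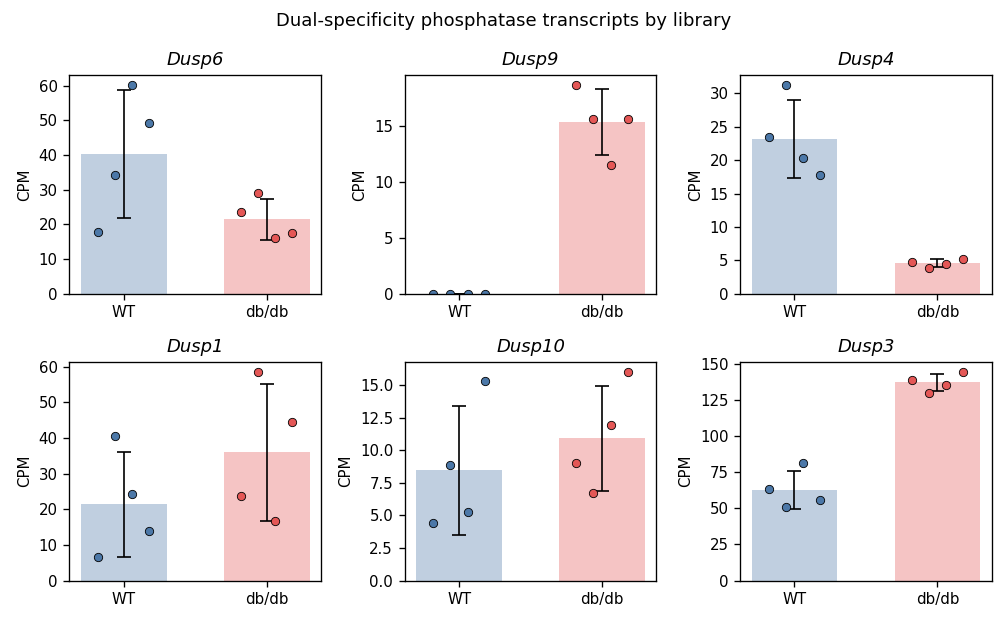
CPM of each of the 6 phosphatases by genotype, with a point per library, bars at the mean and error bars of 1 SD (n = 4). Dusp9 is at 0 in all WT libraries and between 11.5 and 18.7 CPM in db/db, Dusp4 and Dusp3 separate the genotypes in opposite directions, and Dusp6, Dusp1 and Dusp10 overlap.

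Dusp1 (MKP-1; 17, 26505590 to 26562128, minus strand), an immediate early gene that acts on p38, JNK and ERK, varied more between libraries of the same genotype than any of the other 5 that had counts there. It stood at 6.47, 40.5, 24.4 and 14.0 CPM in WT 1 to 4 and at 23.8, 58.5, 16.8 and 44.6 CPM in db/db 1 to 4. The highest WT library was 6.26 times the lowest, and the highest db/db library 3.48 times the lowest. The groups overlapped, with 21.4 ± 14.7 CPM in WT and 35.9 ± 19.1 CPM in db/db (log2 fold change 0.76, SE 0.41). That log2 fold change was 0.44 without WT 1, 1.25 without WT 2 and 0.42 without db/db 2. An exon of Ergic1 overlaps Dusp1 on the other strand, which makes its counts uncertain in the same way.

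The libraries high in Dusp1 were those high in the immediate early genes, a list of 13 transcription factors and RNA-binding or growth regulators that cells switch on within minutes of a stimulus. The summed level of the list was 109, 526, 324 and 201 CPM in WT 1 to 4 and 162, 378, 145 and 332 CPM in db/db 1 to 4, and the order of the libraries within each genotype was the same as for Dusp1. WT 2 was the highest WT library for 9 of the 13, and WT 1 or WT 4 was the lowest for 11 of the 12 with 10 or more counts over the WT libraries. Egr1, which encodes a zinc finger transcription factor, had 33, 314, 85 and 29 counts in WT 1 to 4 and 56, 245, 21 and 164 in db/db 1 to 4. Fos, the AP-1 subunit, had 2, 39, 5 and 0 counts in WT 1 to 4 and 5, 33, 2 and 13 in db/db 1 to 4, and did not pass the count filter. The sampling order of the mice is not given in the sources used here, and its part in these values was not tested.

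**Figure D2:**
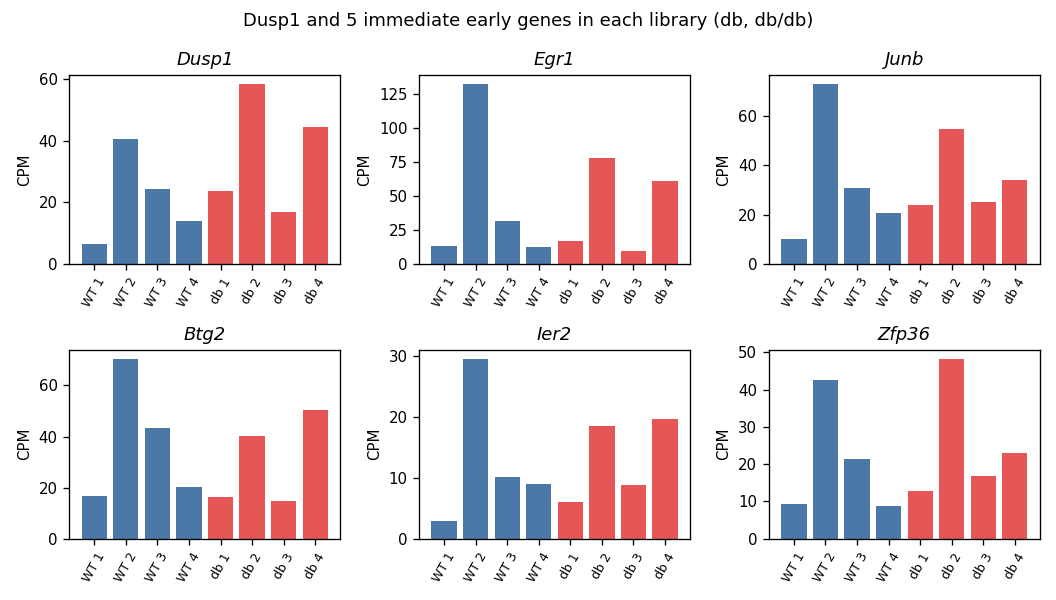
CPM of Dusp1 and of 5 immediate early genes in each library (WT blue, db/db red, 1 bar per library, linear axes from 0). WT 2 and db/db 2 are high in all 6 panels, and WT 1 is at 6.47 CPM for Dusp1, the lowest of the 8 libraries.

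The promoter sequence of Dusp1 is shown because the library-to-library level of this gene moved with the immediate early genes, and that of Btg2, an antiproliferative immediate early gene, because it holds the same motif. RefSeq promoters on GRCm38.p6 matched 4 of the 6 phosphatases (Dusp1, Dusp3, Dusp6 and Dusp10) and 9 of the 13 immediate early genes. Each sequence runs 5′ to 3′ over the 250 bases before the start, on the minus strand, and capitals mark the cAMP response element TGACGTCA, the site bound by CREB and ATF factors.
Dusp1, chr17:26508473-26508722: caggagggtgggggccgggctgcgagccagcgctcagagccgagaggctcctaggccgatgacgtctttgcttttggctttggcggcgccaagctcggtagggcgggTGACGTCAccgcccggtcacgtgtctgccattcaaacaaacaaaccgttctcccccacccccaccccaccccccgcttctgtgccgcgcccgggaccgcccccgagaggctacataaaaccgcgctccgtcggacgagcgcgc
Btg2, chr1:134079156-134079405: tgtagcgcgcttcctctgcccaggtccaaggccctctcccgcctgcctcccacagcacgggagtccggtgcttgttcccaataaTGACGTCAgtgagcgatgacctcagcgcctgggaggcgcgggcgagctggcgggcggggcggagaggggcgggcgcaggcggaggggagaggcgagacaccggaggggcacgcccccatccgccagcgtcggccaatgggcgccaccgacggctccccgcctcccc
The element starts 143 bases before the Dusp1 start and 166 bases before the Btg2 start. Searched on both strands, it was present in 1.55% of 32851 RefSeq windows of this length, in none of those of Dusp3, Dusp6 and Dusp10, and in 1 of the 9 immediate early genes. The AP-1 motif TGANTCA (6.75% of windows) was in none of the 4 phosphatase windows, nor was the CArG box bound by serum response factor (1.47% of windows), which 2 of the 9 immediate early genes, Egr2 and Zfp36, held. A match describes these letters and does not show binding, and its absence speaks only for this window.

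The summed level of the 5 MKPs among the 6 genes overlapped between the genotypes. Within it the shares of Dusp4, Dusp6 and Dusp9 did not overlap, and those of Dusp1 and Dusp10 did. The genes were chosen on this contrast, so nothing is read from that. Other MKPs with counts, such as Dusp7, Dusp8 and Dusp16, are left out, so these are not shares of all MKP transcripts. Summed per kilobase of exon, the level of Dusp1, Dusp4, Dusp6, Dusp9 and Dusp10 was 30.6 ± 8.97 CPM per kilobase in WT and 28.6 ± 7.06 in db/db, with overlapping ranges of 17.7 to 37.5 and 19.97 to 36.2. Within this sum the share of Dusp4 was 30.1 ± 13.1% in WT and 6.15 ± 1.78% in db/db, and that of Dusp6 was 41.3 ± 12.4% and 24.3 ± 4.75%. Dusp9 made up 20.3 ± 4.48% in db/db, between 15.8% and 26.1%, and Dusp1 35.9 ± 11.4% against 19.5 ± 9.70% in WT. Dusp10 made up 9.21 ± 4.74% in WT and 13.4 ± 5.98% in db/db. Whether counts from this kit scale with transcript length is not given in the sources used here. Without dividing by length, Dusp9 made up 17.97 ± 4.21% of the db/db sum.

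By level per kilobase the order in WT was Dusp3 (13.4 ± 2.83), Dusp6 (12.9 ± 5.88), Dusp4 (8.47 ± 2.13), Dusp1 (6.45 ± 4.45) and Dusp10 (2.78 ± 1.62), and each of these neighbours overlapped. In db/db it was Dusp3 (29.3 ± 1.29), Dusp1 (10.9 ± 5.78), Dusp6 (6.85 ± 1.90), Dusp9 (5.64 ± 1.07), Dusp10 (3.59 ± 1.32) and Dusp4 (1.67 ± 0.216). Dusp3 lay above and Dusp4 below all others in every db/db library, while Dusp1, Dusp6, Dusp9 and Dusp10 overlapped with their neighbours. Dusp9 was above Dusp10 in all 4 db/db libraries and below Dusp6 in 3 of 4.

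**Figure D3:**
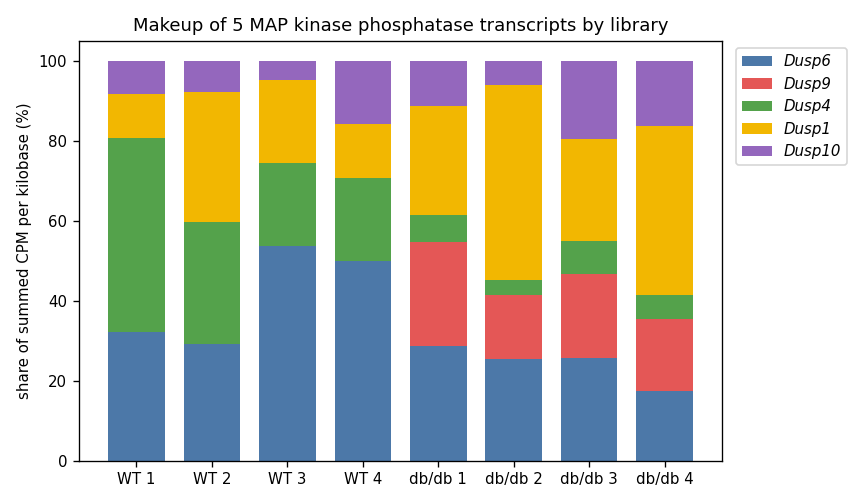
Share of each of 5 MKP transcripts in their summed CPM per kilobase, stacked to 100% for each library. Dusp9 takes 15.8% to 26.1% in db/db libraries and none in WT libraries, and Dusp4 takes 20.7% or more in WT and 8.10% or less in db/db.

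The relatives that were not among the 6 were 22 genes, of which 12 passed the filter and were tested by edgeR in the fit over all genes. Dusp8 rose and Dusp23 and Dusp28 fell in db/db, 3 of 12, while 27.7% of all genes tested passed the threshold, 15.8% higher and 11.9% lower. The median log2 fold change of the 12 was -0.39, and over all genes tested it was 0.01.

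Among the other MKPs, Dusp8, which prefers JNK and p38, rose 3.97-fold (log2 fold change 1.99, SE 0.51, edgeR adjusted p = 0.00731). It had 0, 6, 11 and 4 counts in WT 1 to 4 and 23, 28, 18 and 28 in db/db 1 to 4, with no overlap in CPM, at 2.09 ± 1.72 CPM against 8.56 ± 1.48 CPM. An exon of Gm32786 overlaps Dusp8 on the other strand, so the Dusp8 counts are uncertain as for Dusp3. Dusp7, the third cytoplasmic ERK phosphatase beside Dusp6 and Dusp9, stood at 16.8 ± 3.85 CPM in WT and 14.3 ± 1.68 CPM in db/db (edgeR adjusted p = 0.506, log2 fold change -0.23 with SE 0.23). Dusp16, a JNK phosphatase, had a log2 fold change of -0.40 (SE 0.30, edgeR adjusted p = 0.362). The inducible nuclear phosphatases Dusp2 and Dusp5 were near the floor, with 0 to 7 and 0 to 4 counts per library, and were not tested.

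Of the 9 atypical phosphatases tested, 2 fell, which is 22.2% and near the 27.7% of all genes tested. Dusp28 fell from 40.8 ± 3.71 to 21.4 ± 2.38 CPM (log2 fold change -0.94, SE 0.17, edgeR adjusted p = 0.000498). Dusp23 (VHZ) fell from 29.3 ± 2.20 to 16.9 ± 4.34 CPM (edgeR adjusted p = 0.00867, log2 fold change -0.80 with SE 0.21), and both had all db/db libraries below all WT libraries. Dusp28 overlaps an exon of 5033417F24Rik on the other strand, which makes its counts uncertain as for Dusp3. In all, 3 of the 9 had groups that did not overlap, beside 28.1% of all genes tested. The other 7 did not pass the threshold. The untested ones included Dusp13 and Dusp26, known from skeletal muscle, whose counts were highest in db/db 1, the library with the most muscle signal. Dusp13 had 0 counts in every WT library and 11, 7, 2 and 0 in db/db 1 to 4, and Dusp26 had 4 to 8 counts in WT and 41, 8, 24 and 10 in db/db 1 to 4.

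**Figure D4:**
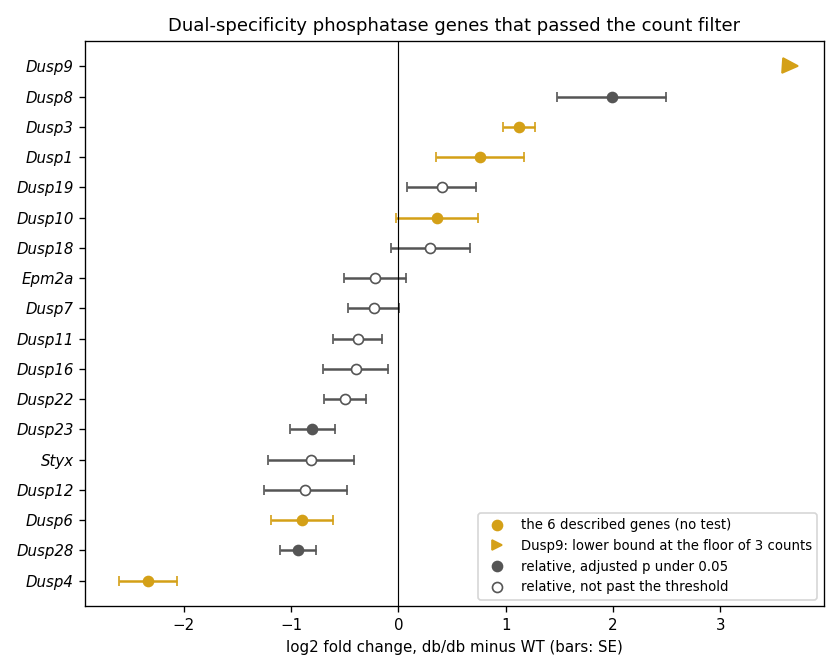
Log2 fold change (db/db minus WT) of the 18 dual-specificity phosphatase genes that passed the filter, with SE bars. The arrow for Dusp9 is its lower bound at the floor of 3 counts, 3.65, filled grey points passed edgeR's adjusted p of 0.05, and Dusp4 lies lowest at -2.33.

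The wider MAP kinase pathway was given by 7 lists of 103 genes, of which 69 were tested. Of these, 9 rose and 7 fell in db/db (edgeR adjusted p under 0.05), 23.2% against 27.7% of all genes, with a median log2 fold change of 0.15. Of the 9 MAP kinases tested, Mapk3 and Mapk7 passed the threshold (22.2%). Mapk14 (p38α) had a log2 fold change of -0.10 (SE 0.18, edgeR adjusted p = 0.725), Mapk8 (JNK1) of 0.20 (SE 0.28, edgeR adjusted p = 0.637) and Mapk9 (JNK2) of -0.27 (SE 0.22, edgeR adjusted p = 0.383). Mapk3 (ERK1) rose 1.29-fold from 109 ± 13.1 to 141 ± 6.73 CPM (edgeR adjusted p = 0.0418), a call that passed under 7 of 17 alternatives, where the adjusted p ran from 0.0205 to 0.150, and was lost without WT 2, WT 3, WT 4, db/db 1, db/db 3 or db/db 4. Mapk7 (ERK5) rose 2.55-fold on 2 to 15 counts per WT library and 17 to 32 in db/db (edgeR adjusted p = 0.0380), and passed under 11 of 16 alternatives, but not without WT 1, WT 2, WT 3, db/db 2 or db/db 3. Its log2 fold change was 1.35, and 1.94 without WT 4. An exon of Mfap4 overlaps Mapk7 on the other strand, which makes its counts uncertain as for Dusp3. The part of Mfap4 reads in the Mapk7 counts was not tested.

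Upstream, 3 of 13 RAS activators and adaptors rose and 1 fell, or 30.8%, beside 27.7% of all genes tested. Nras rose from 31.8 ± 5.41 to 58.4 ± 5.61 CPM (edgeR adjusted p = 0.000685, log2 fold change 0.87 with SE 0.17), while Hras did not pass the threshold. The docking protein Gab2 rose 2.22-fold (edgeR adjusted p = 0.00249) and the adaptor Grb2 1.51-fold (edgeR adjusted p = 0.0211, lost without WT 1, WT 3 or db/db 4). The exchange factor Sos2 fell to 0.639 of its WT level (edgeR adjusted p = 0.0418) and passed under 10 of 17 alternatives, but not without WT 1, WT 3, db/db 2, db/db 3 or db/db 4. Of 19 MAP2 and MAP3 kinases 2 passed the threshold (10.5%, beside the same 27.7%). Map2k3 (MKK3), which activates p38, rose 1.503-fold (edgeR adjusted p = 0.0142, 0.0560 without WT 1), and Map3k5 (ASK1), which acts above JNK and p38, fell from 59.8 ± 6.68 to 30.9 ± 7.36 CPM (edgeR adjusted p = 0.000842).

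Downstream, of 7 tested kinases that MAP kinases activate, 1 rose, 2 fell and 4 did not pass the threshold (42.9% called, beside 27.7% of all genes tested). Mapkapk2 (MK2), a p38 substrate, fell from 156 ± 12.7 to 96.0 ± 14.5 CPM (edgeR adjusted p = 0.000892), and Mknk2, which phosphorylates eIF4E, fell from 242 ± 28.1 to 155 ± 13.8 CPM (edgeR adjusted p = 0.00118). Rps6ka3 (RSK2) rose 1.93-fold (edgeR adjusted p = 0.0135, 0.0598 without db/db 1). None of the 6 tested ERK feedback and target genes passed the edgeR threshold, beside 27.7% of all genes tested, and none passed by DESeq2 or limma-voom. By edgeR 3 of them had an unadjusted p under 0.05 (3 by DESeq2, 2 by limma-voom). The 3 by edgeR were Spry2 (log2 fold change 0.65, SE 0.27, edgeR adjusted p = 0.0872), Etv5 (0.96, SE 0.40, adjusted p = 0.0799) and Phlda1 (0.71, SE 0.31, adjusted p = 0.103, named after its values were seen). Spry2 passed without db/db 1 (adjusted p = 0.0461). Spry1 had a log2 fold change of -0.19 (SE 0.38, edgeR adjusted p = 0.758), and Spry4 had 0 to 5 counts per library and was not tested. Dusp6, an ERK feedback gene itself, averaged lower in db/db while Spry2 and Etv5 averaged higher.

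Of the 9 immediate early genes tested, Nr4a1, an orphan nuclear receptor, fell and Atf3, a stress-induced transcription factor, rose. These 2 are 22.2% of the list, near the 27.7% of all genes tested. Nr4a1 had 3, 159, 271 and 159 counts in WT 1 to 4 and 13, 37, 3 and 42 in db/db 1 to 4 (edgeR adjusted p = 0.00439, log2 fold change -2.84 with SE 0.68), and WT 1 lay below all db/db libraries in CPM. With limma-voom its log2 fold change was -2.20 and its adjusted p 0.252. Atf3 had 0 to 11 counts in WT and 34, 33, 5 and 70 in db/db 1 to 4 (edgeR adjusted p = 0.0136, log2 fold change 2.25 with SE 0.64), and adjusted p of 0.0788 by DESeq2, 0.0636 by limma-voom and 0.0760 without db/db 4, where the log2 fold change was 1.60. Egr1 did not pass the threshold (edgeR adjusted p = 0.860, log2 fold change -0.19 with SE 0.63), and its sign turned without WT 2, where the log2 fold change was 1.09.

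Of 6 tested phosphatases of other families that act on MAP kinases, 1 rose and 2 fell, 3 in all, beside 27.7% of all genes tested. Ptpn7, a tyrosine phosphatase of blood cells that acts on ERK and p38, had 4, 1, 2 and 5 counts in WT 1 to 4 and 40, 24, 11 and 16 in db/db 1 to 4 (edgeR adjusted p = 0.000681, log2 fold change 2.62 with SE 0.50). Ppm1d (WIP1), which acts on p38, fell to 0.464 of its WT level (edgeR adjusted p = 0.0115), and Ppm1b fell from 156 ± 21.2 to 112 ± 12.4 CPM (edgeR adjusted p = 0.0152). The 12 lymphocyte and neutrophil markers summed to 1.13 to 21.1 CPM in WT and 23.9 to 40.6 CPM in db/db, with Cd79a at 0 in all libraries. Only 2 of them passed the count filter, of which 1 was higher. The macrophage markers rose as given above.

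**Figure D5:**
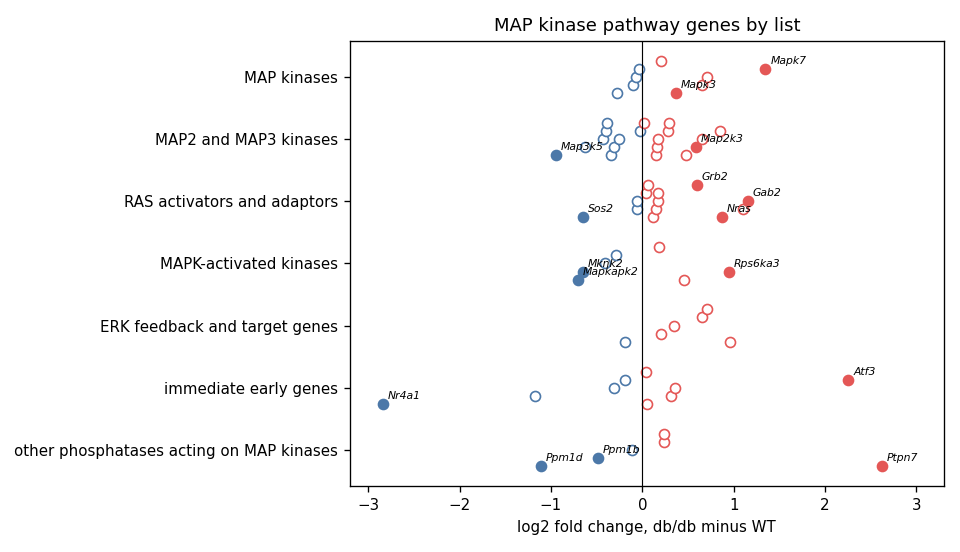
Log2 fold change (db/db minus WT) of the 69 tested pathway genes by list. Filled, named points passed edgeR's adjusted p of 0.05 (9 higher in red, 7 lower in blue), open points did not, and none of the ERK feedback and target genes is filled.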

How the data were processed

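Per the labels, RNA of 8 BAT libraries was sequenced on a commercial digital mRNA-seq service (single-end reads), and group and replicate number were taken from the titles. The authors deposited raw counts per Ensembl gene, made per the methods with bbduk, STAR and HTSeq-count on mm10, while the submitters' processing notes name Trimmomatic, HISAT2 and DESeq2. The annotation release, the strand setting and any collapse of molecular identifiers are not given in the sources used here, so PCR copies may be counted. The deposited normalized log2 values were not used. Identifiers were matched to GENCODE M21 (31011 of 31053 genes). Total counts per library were 2374079 to 3240074.

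Genes were filtered with filterByExpr (minimum count 10, minimum total 15), scaled by TMM and fitted by genotype in edgeR 4.0.16 (R 4.3.3, quasi-likelihood test), with Benjamini-Hochberg adjustment over the 9264 genes tested at 0.05. SEs were derived from the F statistic. The step was tested on simulated data. DESeq2 1.42.0, limma-voom (limma 3.58.1), other scalings and filters, a replicate block and leaving out each library were alternatives. The labels only number the libraries, and the study gives 4 mice per group for this comparison, which is the number of libraries. No same-group pair agreed within sampling noise (chi-square per gene 4.201 to 16.34). The members and gene lists were chosen with earlier results of these data known. Named were the 6 members, 16 relatives, kinases and targets, per list up to 4 genes in each direction with the smallest adjusted p, and the 5 genes most like Dusp9. Neighbours of Dusp9, up to 3 tested genes on each side, were chosen by position after the files were seen. Some items under these rules are not reported here. Endothelial markers summed to 388 to 442 CPM in WT and 280 to 334 CPM in db/db (3 of 7 tested lower), and Schwann and smooth muscle markers to 50.7 to 104 CPM and 136 to 295 CPM (2 of 5 tested higher). Brown adipocyte markers summed to 16639 to 22833 CPM and 17232 to 23458 CPM, with 2 of 10 tested higher and 6 lower.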

Additional observations from a re-analysis of the deposited data

Results flagged for a closer look

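In groups of 4 libraries, the highest or lowest value was compared with its nearest neighbour by Dixon's ratio, for 38 named genes in 75 groups, and 5 stood apart. Chance flags about 1 in 20 groups, or 3.75 here. None of the 6 phosphatases described was among them. In WT 2, Egr1 stood at 133 CPM against 12.3 to 31.9 CPM in the other WT libraries and Fos at 16.5 CPM against 0 to 1.88 CPM, in the library where Dusp1 was also highest among WT. Rps6ka3 stood at 16.1 CPM in WT 4 against 8.50 to 9.39 CPM in the others. In db/db 4, Mknk2 was highest at 175 CPM against 147 to 149 CPM. Mapk3 was lowest in db/db 2, at 131 CPM against 144 to 145 CPM.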

How the results depend on the processing

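Over 16 or 17 alternatives the direction of all 6 members held. For Dusp9 this could not have come out otherwise, with 0 counts in every WT library. The 6 were chosen on this contrast, so nothing is read from it. The fitted value of Dusp9, which has no counts in WT, depends on the prior and is no bound, and with a floor of 1 count in place of 3 its fold was at least 37.7. The number of genes called ran from 2018 to 3170 across scalings, filters and tools and from 2236 to 2483 leaving out a library. Keeping every gene with at least 1 count moved the dual-specificity relatives called from 3 to 6, adding Dusp13, Dusp26 and Dusp27, all higher, because more genes were tested. The 6 were of 21 tested (28.6%), beside 19.3% of all genes tested under that setting. The pathway count of 16 ran from 12 to 18. It was 18 of 97 (18.6%, beside the same 19.3%) with every gene of at least 1 count. With at least 10 counts in every library it was 12 of 53 (22.6%, beside 27.5% of all genes tested). Without WT 1 it was 12 of 70 (17.1%, beside 24.9%). Of 245 comparisons of named list genes under other settings 9 lost the call, and of 224 leaving out a library 22 lost it and 1 gained it. Reversed signs, none past the threshold, were those of Egr1 (0.081 with limma-voom, 1.09 without WT replicate 2, 0.09 without db/db replicate 1, 0.12 without db/db replicate 3) and Mapk8 (-0.060 without db/db replicate 1), and leaving out a library they ran from -0.70 to 1.09 for Egr1 and from -0.060 to 0.33 for Mapk8. The cause was not tested. With the replicate block, 2557 genes, 3 relatives and 16 pathway genes were called. The numbers did not pair the samples (correlations of same-numbered deviations from -0.08 to 0.05). Depth limits Dusp4 in db/db, Dusp8 in WT and the untested Dusp2, Dusp5 and Spry4.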
